A study of Mus musculus with 6 samples.

Results

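Falcor is a long non-coding RNA gene, listed on the array under the symbol 9030622O22Rik, and Foxa1, Foxa2 and Foxa3 make up the Foxa group of forkhead transcription factors. Every probe set that the platform annotation assigns to these genes was taken, which gave 4 of the 16537 genes measured, each by a single probe set that no other gene shared (24173 probe sets in all). They were compared between 3 arrays from wild-type mice and 3 arrays labelled Falcor-null (Falcor-/-). All 6 samples were RNA of whole lung, taken after naphthalene, a compound that injures the airway's club cells, and all carried the strain label CD1_C57Bl6_mix. The labelled time after naphthalene rises by 1 day per sample in the order of listing, 28, 29 and 30 days in wild type and 31, 32 and 33 days in Falcor-null. Whether these are true times or a single time filled in as a series could not be settled from the sources used here, and if they are true, day and genotype cannot be told apart. The labels did not give the age of the animals, how the null allele was made or whether each array came from a separate animal, so the p-values reflect only how far these samples spread, and that spread may be technical. No lung without naphthalene was analysed here.

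Foxa proteins bind DNA through a winged-helix domain that resembles linker histone, and they can bind sites within closed chromatin, for which they are called pioneer factors. In the lung, Foxa1 and Foxa2 are made by epithelial cells of airways and alveoli, where they act with Nkx2-1 on genes such as those of surfactant proteins and secretoglobins. Loss of Foxa2 from lung epithelium is known to give goblet cell metaplasia, an overgrowth of mucus-making cells. Foxa3 is known from liver and gut and has been linked to the goblet cell programme of the airway. Falcor lies beside Foxa2, and the series title names Foxa2 expression as the process that Falcor regulates.

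Falcor and Foxa2 are neighbours on chromosome 2 with no other gene of the RefSeq table (assembly GRCm38.p6) between them, and both are read from the minus strand. The stretches of 250 bases before a RefSeq start of Falcor, Foxa2 and Foxa1 are shown because Falcor and Foxa2 share a locus and because those of Falcor and Foxa1 hold the forkhead core sequence. The Falcor window is chr2:148040349-148040598, the Foxa2 window chr2:148046970-148047219 and the Foxa1 window chr12:57546112-57546361 (GRCm38.p6, minus strand, written 5′ to 3′). Capitals mark the letters TAAACA or GTAAACA, the reverse complements of TGTTTA and TGTTTAC.
Falcor: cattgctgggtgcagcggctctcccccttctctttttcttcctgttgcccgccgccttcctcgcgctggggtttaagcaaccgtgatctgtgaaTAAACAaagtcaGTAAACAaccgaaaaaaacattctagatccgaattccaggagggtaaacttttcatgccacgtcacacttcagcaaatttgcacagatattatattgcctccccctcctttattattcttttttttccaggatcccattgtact
Foxa2: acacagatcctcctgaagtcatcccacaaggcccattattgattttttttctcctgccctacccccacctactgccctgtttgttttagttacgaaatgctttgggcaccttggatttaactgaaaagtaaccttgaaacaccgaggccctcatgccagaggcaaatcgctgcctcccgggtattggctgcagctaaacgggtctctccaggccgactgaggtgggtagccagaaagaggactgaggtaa
Foxa1: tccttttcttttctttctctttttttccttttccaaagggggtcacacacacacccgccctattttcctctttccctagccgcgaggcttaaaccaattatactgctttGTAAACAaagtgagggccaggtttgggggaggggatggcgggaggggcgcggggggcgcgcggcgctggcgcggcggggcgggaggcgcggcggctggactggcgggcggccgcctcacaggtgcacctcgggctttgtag

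The motif TGTTTAC was searched on both strands, and so was the shorter TGTTTA, of which it is an extension. RefSeq lists 26 starts for Falcor, and the windows before 16 of them held TGTTTAC. Windows of nearby starts overlap and can share a match, so these 16 need not hold separate matches. In the window shown, the match lies 138 to 144 bases before the start. That window belongs to the most downstream of the 21 starts within 500 bases of the first, and it was chosen after the match was seen. The single Foxa1 window held TGTTTAC 135 to 141 bases before the start, and neither the 3 Foxa2 windows nor the single Foxa3 window held it or TGTTTA. Of all 32851 windows of this length in the table, 3.17% held TGTTTAC and 12.0% held TGTTTA. Genes with many starts have more windows to hold a match, and 3.54% of 27025 genes had TGTTTAC in at least 1 window. A match is a run of letters and not a measured binding site.

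Each array gave log2 signals with a median between 6.69 and 6.74, and the arrays labelled Falcor-null reached lower values (2.09 to 2.42) than the wild-type arrays (3.19 to 3.22). The lung tissue markers were bright on all 6 arrays, between 9.31 and 13.6 over 6 genes, among them Scgb1a1, the secretoglobin of club cells (log2 difference 0.02, limma adjusted p 0.944). Scgb1a1 read 13.5 to 13.6 on every array, near the top of the scale (13.9), which can compress a difference. Ager, of alveolar type 1 cells, gave 0.24 and the alveolar tight junction gene Cldn18 -0.19, and neither passed (limma adjusted p 0.283 and 0.566). The 9 measured markers of thyroid, stomach and pancreas, organs that also make Foxa factors, all lay below the 30th percentile of probe set means (5.88), with values between 4.55 and 5.78 on the 6 arrays. Of these markers, 7 were higher and 2 lower on the arrays labelled Falcor-null, with a median log2 difference of 0.07. Their summed linear signal was 315 to 318 on the wild-type arrays, against 338 to 348 on those labelled Falcor-null. The stomach genes Pgc (log2 difference 0.46), Atp4a (0.19) and Gkn2 (0.17) had the smallest p of these 9 markers and did not pass (limma adjusted p 0.164, 0.396 and 0.469). Of the 4 member genes, Foxa1 and Foxa2 lay above that 30th percentile, whereas Falcor and Foxa3 lay below it.

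Falcor, the targeted gene, was higher on the arrays labelled Falcor-null. The log2 signal of its probe set was 4.69, 5.01 and 5.45 on the 3 wild-type arrays, against 6.82, 6.34 and 6.32 on the arrays labelled Falcor-null (probe set 17392549). Every array labelled Falcor-null lay above every wild-type array, with a gap of 0.87 between the groups. The means were 5.05 ± 0.38 and 6.49 ± 0.28 (SD, n = 3 each), a log2 difference of 1.44 (SE 0.21, 95% interval 0.94 to 1.94), with a limma adjusted p of 0.0423. All 3 wild-type values lay within the range of the thyroid, stomach and pancreas markers (4.55 to 5.78), so Falcor RNA was not shown to be above background in wild type. The log2 difference is therefore that of the signals, and sets no upper limit on the change in RNA. Over all genes, 0.556% passed in either direction and 0.0968% passed as higher, and only 0.302% differed by as much as Falcor. Falcor also spread more between arrays of a group than 95.7% of genes, with a pooled SD of 0.34. The sources used here do not place the probe set within or outside the stretch altered in the null allele, and if it lies outside, its signal is no check of the genotype. Directions below therefore rest on the labels alone.

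The Falcor call depended on single arrays. It held without wild type replicate 3 (log2 difference 1.64, limma adjusted p 0.0379). It was lost without wild type replicate 1 (1.26, adjusted p 0.0704), wild type replicate 2 (1.42, adjusted p 0.143), Falcor-null replicate 1 (1.28, adjusted p 0.123), Falcor-null replicate 2 (1.52, adjusted p 0.110) and Falcor-null replicate 3 (1.53, adjusted p 0.0821). With the labelled day as a covariate the difference was 1.25 (SE 0.47, adjusted p 0.543), and 0 genes of the array passed in that limma fit, with 8.45% at an unadjusted p under 0.05. This and the other values with the day as a covariate bear on time only if the labelled days are true ones.

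**Figure D1:**
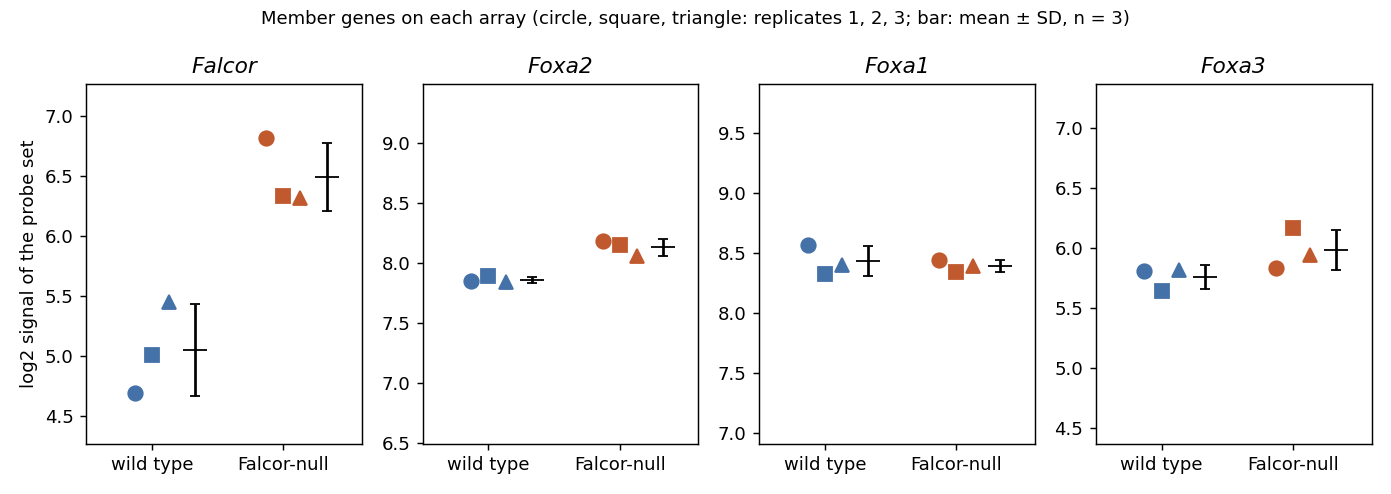
Log2 signal of the 4 member genes (vertical axis, spanning the same number of log2 units in every panel) on the 3 wild-type arrays (blue) and the 3 arrays labelled Falcor-null (orange). Symbols are replicates 1, 2 and 3, and bars are the mean ± SD; the groups lie apart for Falcor and Foxa2, by 0.018 for Foxa3, and overlap for Foxa1.

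Foxa2 was 7.85, 7.89 and 7.84 on the 3 wild-type arrays, against 8.19, 8.15 and 8.05 on the arrays labelled Falcor-null (probe set 17392561). The groups did not overlap and lay 0.16 apart, and the wild-type arrays spanned no more than 0.052. The log2 difference was 0.27 (SE 0.07, 95% interval 0.10 to 0.44), or 1.21-fold (interval 1.07 to 1.36). It did not pass the test over all genes (limma adjusted p 0.175). Its unadjusted p of 0.00719 ranked 678th among the 16537 genes, of which 13.8% had an unadjusted p under 0.05. Its pooled SD of 0.052 was smaller than that of all but 7.10% of genes, while 13.6% of genes differed by at least as much. The difference lay between 0.24 and 0.31 whichever array was left out. With the labelled day as a covariate it was 0.38, with a wider SE of 0.16 (limma adjusted p 0.601).

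Foxa1, the closest relative of Foxa2 in lung epithelium, was 8.57, 8.33 and 8.40 on the 3 wild-type arrays, against 8.44, 8.35 and 8.39 on the arrays labelled Falcor-null (probe set 17281337). The groups overlapped, all 3 arrays labelled Falcor-null falling within the wild-type range. The log2 difference was -0.04 (SE 0.09, limma adjusted p 0.883), and its 95% interval ran from -0.25 to 0.16, so a change larger than 0.25 in either direction lay outside it. The sign turned to 0.00 after a second quantile normalization, to 0.03 without wild type replicate 1 and to 0.12 with the labelled day as a covariate.

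Foxa3 was dim, at 5.81, 5.64 and 5.82 on the 3 wild-type arrays, against 5.83, 6.16 and 5.94 on the arrays labelled Falcor-null (probe set 17487149). The groups were apart by only 0.018. The log2 difference of 0.22 (SE 0.11, 95% interval -0.02 to 0.47) did not pass (limma adjusted p 0.412) and ranged from 0.13 without Falcor-null replicate 2 to 0.30 without Falcor-null replicate 1. The dim thyroid, stomach and pancreas markers were also mostly higher, 7 of 9, with differences from -0.04 to 0.46 and a median of 0.07. Whether the Foxa3 difference goes beyond that of such dim probe sets was not tested. In all, 3 of the 4 member genes had groups that did not overlap, each with the arrays labelled Falcor-null higher, as had 8.96% of all genes; 19.5% did not overlap in either direction.

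**Figure D2:**
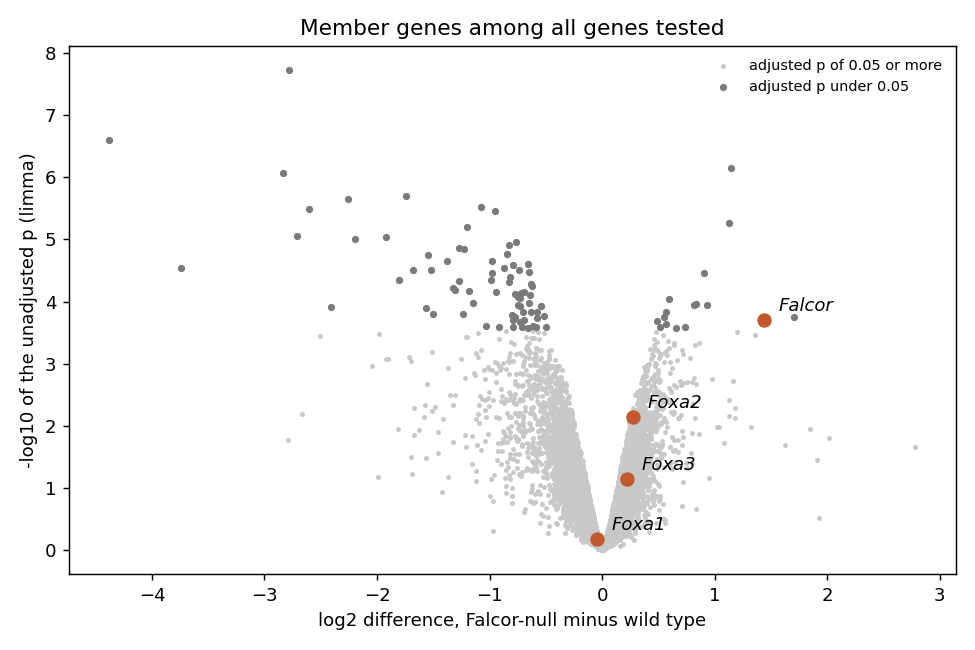
Each point is 1 of 16537 genes, with its log2 difference (Falcor-null minus wild type, horizontal axis) and -log10 of its unadjusted limma p (vertical axis); dark grey marks an adjusted p under 0.05 and orange the 4 member genes. Falcor stands among the few genes that passed as higher, whereas Foxa2, at a log2 difference of 0.27, lies below the genes that passed.

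Since Foxa2 is made by epithelial cells, it was set beside 10 general epithelial markers. In bulk samples, fewer cells of a type and less RNA per cell cannot be told apart. The mean log2 signal of the 10 markers was 8.11, 8.09 and 8.19 on the 3 wild-type arrays, against 8.14, 8.20 and 7.96 on the arrays labelled Falcor-null, a difference of -0.03. Among them, 5 were higher and 5 lower, and none passed (0 at an unadjusted limma p under 0.05, against 13.8% of all genes). The groups overlapped for all 10, whereas 19.5% of all genes did not overlap. Epcam, an epithelial adhesion molecule, gave a difference of 0.01 (limma adjusted p 0.986). The smallest p belonged to the transcription factor Elf3 (-0.24), the tight junction gene Cldn7 (-0.17) and the splicing factor Esrp1 (-0.15), with limma adjusted p-values of 0.405, 0.523 and 0.557. Foxa2 minus the marker mean was -0.26, -0.20 and -0.35 on the 3 wild-type arrays, against 0.05, -0.05 and 0.10 on the arrays labelled Falcor-null. It thus stood 0.30 higher on the arrays labelled Falcor-null, without overlap, which in the two-sided exact permutation test over arrays gives 0.1, the smallest p that 3 against 3 allows. The same measure differed by -0.01 for Foxa1 (exact permutation p of 1), by 0.26 for Foxa3 (0.2) and by 1.47 for Falcor (0.1).

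Markers of other cell types were read in the same comparison. All 7 endothelial markers were higher, 5 of them without overlap (8.96% of all genes were higher without overlap), with a median of 0.25 (0.14 without Falcor-null replicate 1). None passed, and 3 had an unadjusted limma p under 0.05 (13.8% of all genes). Cldn5, Tie1 and Emcn, of vessel junctions and surface, gave 0.43, 0.47 and 0.63 (limma adjusted p 0.101, 0.101 and 0.278), and Emcn 0.36 without Falcor-null replicate 3. Among 7 mesenchymal markers 6 were higher, with a median of 0.20. The contractile gene Tagln rose 1.46-fold (limma adjusted p 0.0407), a call lost whichever array was left out (adjusted p up to 0.141), while Pdgfra (0.27) and Acta2 (0.17) did not pass (adjusted p 0.325 and 0.506). All 10 immune markers were lower, 9 of them without overlap (10.6% of all genes were lower without overlap) and 4 passing (0.46% of all genes passed as lower). Among these were Jchain (6.88-fold, limma adjusted p 0.000311), Ighm (6.10-fold, 0.00651) and Cd3e (2.30-fold, 0.00949, but 0.0529 without Falcor-null replicate 2) of plasma, B and T cells. The log2 difference of Ighm was -2.61 for its brightest probe set and -1.94 for the mean of its probe sets. Summed on the linear scale, the immune markers read 21165 to 22220 on the 3 wild-type arrays, against 8055 to 8957 on those labelled Falcor-null. The sums were 11335 to 11695 and 13279 to 13922 for the endothelial markers, 6718 to 7534 and 7717 to 8487 for the mesenchymal ones, and 4790 to 5093 and 4391 to 5473 for the epithelial ones.

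The Foxa2 difference of 0.27 was also set beside the means of the endothelial and mesenchymal markers, of which Tagln alone had passed. The mean of the endothelial markers differed by 0.31 and that of the mesenchymal markers by 0.22. Foxa2 minus the endothelial mean differed by -0.04, and minus the mesenchymal mean by 0.05, with an exact permutation p of 0.4 for each. For Falcor, which lay below both means on every array, the same measures differed by 1.13 (endothelial) and 1.22 (mesenchymal). The mean of the immune markers differed by -1.19, and Foxa2 minus that mean by 1.46 (exact permutation p of 0.1). The part of cell composition in the Foxa2 difference was not tested.

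**Figure D3:**
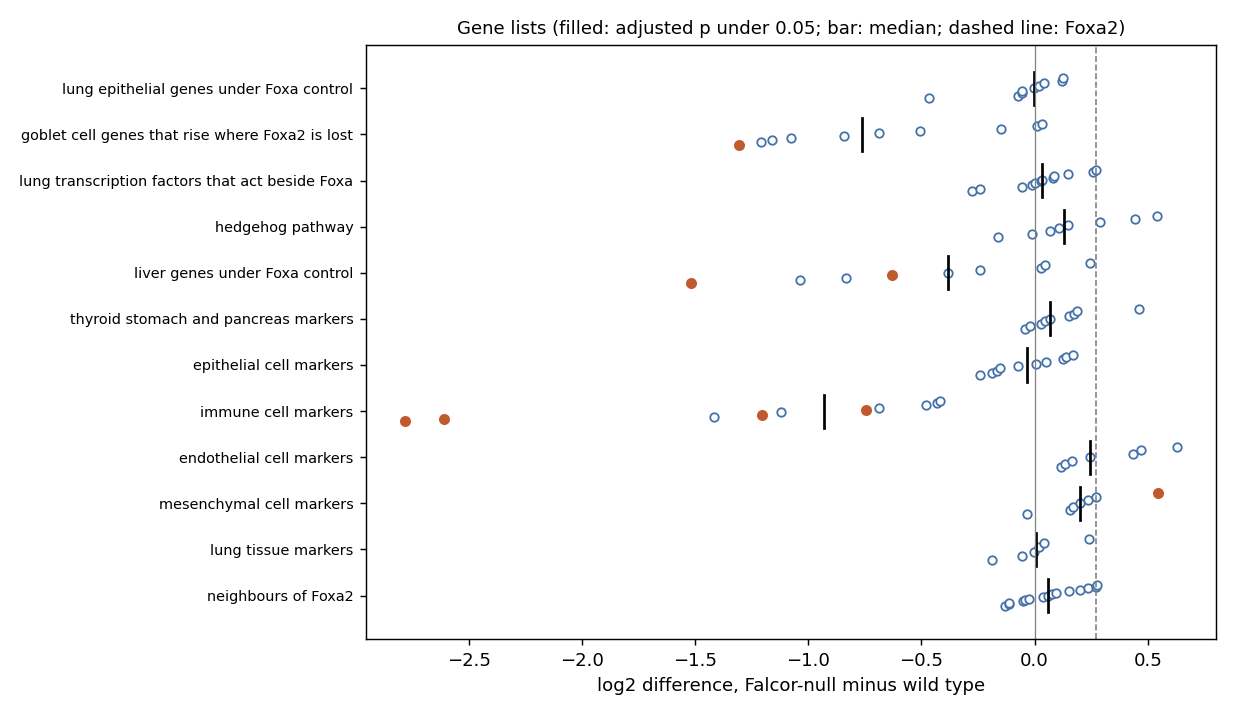
Log2 difference (Falcor-null minus wild type, horizontal axis) of each measured gene in the lists named at left. Filled points passed at an adjusted p under 0.05, the vertical bar is the list's median and the dashed line is Foxa2 at 0.27. The epithelial cell markers and the lung epithelial genes under Foxa control centre near 0, and the goblet cell genes at -0.76. The dashed line falls within the span of the endothelial and mesenchymal points. It also falls within that of the hedgehog genes, the thyroid, stomach and pancreas markers, and the neighbours of Foxa2.

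Transcription factors that act beside Foxa proteins in lung epithelium showed no call. Of 12 measured, 8 were higher and 4 lower, with a median log2 difference of 0.03 against 0.0026 over all genes. Of the 12, 1 had an unadjusted limma p under 0.05 (13.8% of all genes). Klf5, a factor of airway and alveolar epithelium, gave 0.26 without overlap (limma adjusted p 0.238), Elf3 -0.24 (0.405) and Foxp2, a forkhead factor of distal epithelium, -0.28 (0.416). Klf5 was the only 1 of the 12 without overlap, or 8.33%, against 19.5% of all genes. Nkx2-1, the lineage factor that shares many sites with Foxa proteins, read 9.41, 9.35 and 9.39 on the 3 wild-type arrays, against 9.32, 9.37 and 9.31 on the arrays labelled Falcor-null (difference -0.05, 95% interval -0.22 to 0.11, adjusted p 0.792).

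The hedgehog pathway, an inducer of Foxa2 in the embryo, had 6 of 8 measured genes higher and 2 lower, with a median of 0.13. None passed, and 3 had an unadjusted limma p under 0.05 (13.8% of all genes). Hhip, a membrane protein that binds hedgehog ligand and limits the pathway, was 7.96, 7.99 and 7.87 on the 3 wild-type arrays, against 8.56, 8.35 and 8.54 on the arrays labelled Falcor-null. Its groups lay apart, with a log2 difference of 0.54 (SE 0.09, limma adjusted p 0.0551), and it did not pass. It passed in 5 of 17 alternatives, namely median centring, a second quantile normalization, an intensity trend in eBayes and both filters on dim probe sets (limma adjusted p 0.0268 to 0.0468). It missed in the other 12 (adjusted p up to 0.462), among them every fit that left out an array (0.0855 to 0.179). Smo, the signal transducer of the pathway, gave 0.45 (adjusted p 0.0997) and the effector Gli3 0.29 (adjusted p 0.265), whereas the ligand Shh gave 0.11 (adjusted p 0.812). In this list, 4 of 8 genes had groups that did not overlap, against 19.5% of all genes. Without Falcor-null replicate 1, 4 of the 8 were higher and 4 lower, with a median of 0.04.

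Genes of lung epithelium under Foxa control divided evenly, 4 higher and 5 lower of 9, with a median of -0.0025. None passed, and 1 had an unadjusted limma p under 0.05 (13.8% of all genes). Sftpd, the surfactant protein of innate defence, was 11.4, 11.4 and 11.8 on the 3 wild-type arrays, against 11.0, 11.3 and 11.0 on the arrays labelled Falcor-null. It was the only gene of this list whose groups did not overlap (-0.47, 95% interval -0.79 to -0.14, limma adjusted p 0.210). That is 1 of 9, or 11.1%, against 19.5% of all genes. The adhesion molecule Cdh1 gave 0.12 (adjusted p 0.620) and the lipid transporter Abca3 0.12 (adjusted p 0.693), which came to 0.05 and 0.03 without wild type replicate 2. Sftpc, at 13.6 on every array, lay near the top of the scale, as Scgb1a1 did.

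Goblet cell genes of the kind that rise where Foxa2 is lost were mostly lower, 8 of 10, with a median of -0.76. Of the 10, 4 were lower without overlap (10.6% of all genes) and 1 passed as lower (0.46% of all genes). An unadjusted limma p under 0.05 was found for 6 of them (13.8% of all genes). Wild type replicate 3 stood apart in this list, with a summed linear signal of 851 against 1700 and 1552 on the other wild-type arrays and 718 to 804 on the arrays labelled Falcor-null. For the mucin Muc5b, wild type replicates 1 and 2 gave 9.78 and 9.72, while replicate 3 gave 7.70, below the 8.21 to 8.51 of the arrays labelled Falcor-null. The median was -1.02 without wild type replicate 3, but -0.49 and -0.50 without wild type replicate 1 or 2. Itln1, a mucus-associated lectin, was the only one to pass, at 6.08, 5.84 and 5.40 on the 3 wild-type arrays, against 4.53, 4.47 and 4.39 on the arrays labelled Falcor-null (log2 difference -1.31, limma adjusted p 0.0265). The Falcor-null signals lay below all those of the thyroid, stomach and pancreas markers, so this difference is of signals and no measured ratio of RNA. Its call held in 2 of the 6 fits that left out an array, those without wild type replicate 1 and without wild type replicate 3, and the adjusted p ran from 0.0120 to 0.101. Agr2, which folds mucins, gave -0.84 (adjusted p 0.207) and the anion exchanger Slc26a4 -1.16 (adjusted p 0.227), both without overlap. Slc26a4 came to -0.74 without Falcor-null replicate 1, and with the labelled day as a covariate Agr2 gave -0.06 and Slc26a4 -2.64. Spdef, the transcription factor that drives the goblet programme, differed by 0.01 (adjusted p 0.973). Of the 10 genes, 6 lay below the 30th percentile of probe set means.

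Liver genes under Foxa control were measured in lung at low signal, 6 of 9 below that percentile. Alb, which encodes albumin, fell 2.86-fold (limma adjusted p 0.0180), to 6.82, 6.15 and 6.65 on the arrays labelled Falcor-null. Ttr, which encodes transthyretin, fell by 0.63 on the log2 scale (adjusted p 0.0371). Its signals on those arrays lay within the range of the thyroid, stomach and pancreas markers. Apoa1 gave -0.83 without passing (adjusted p 0.0817), and its signals on those arrays lay within that range too. In all, 6 of the 9 were lower, with a median of -0.38, and the nuclear receptor Hnf4a was 0.24 higher (adjusted p 0.442). The Hnf4a signals lay within the range of the thyroid, stomach and pancreas markers on every array. Of the 9, 5 were lower without overlap (10.6% of all genes) and 2 passed as lower (0.46% of all genes). An unadjusted limma p under 0.05 was found for 5 of them (13.8% of all genes). The Alb call was lost without wild type replicate 2, wild type replicate 3 or Falcor-null replicate 3 (adjusted p up to 0.0822), and the Ttr call was lost without any 1 array (up to 0.125).

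The genes around Foxa2 were read to see whether the locus moved as a whole. Among the 10 protein-coding genes on either side, 15 of 20 were measured, 9 higher and 6 lower, with a median of 0.06. None passed, and 2 had an unadjusted limma p under 0.05 (13.8% of all genes). Naa20, an acetyltransferase subunit and the farthest of the 10 on its side, gave 0.27 (limma adjusted p 0.298), the neural and endocrine factor Nkx2-2 0.27 (adjusted p 0.343) and the endocrine factor Insm1 0.20 (adjusted p 0.369). With the labelled day as a covariate Naa20, Nkx2-2 and Insm1 each lay between 0.016 and 0.025, and without wild type replicate 1 Insm1 gave 0.13. All Nkx2-2 signals lay within the range of the thyroid, stomach and pancreas markers. Without wild type replicate 3, 6 of the 15 were higher and 9 lower. The groups did not overlap for 3 of the 15, or 20.0%, near the 19.5% of all genes.

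The genes whose log2 signal followed that of Foxa2 most closely over the 6 arrays were Ptpa (Pearson r 0.998), Svep1 (0.995), Fkbp7 (0.994), Sct (0.993) and Mcam (0.992). Within groups, with the group means removed, r lay between 0.935 for Mcam and 0.988 for Ptpa. Their differences were 0.12, 0.36, 0.51, 0.33 and 0.46, of which Fkbp7 passed (1.43-fold higher, limma adjusted p 0.0477, lost without any 1 array, up to 0.168). All Sct signals lay within the range of the thyroid, stomach and pancreas markers. With the mean of its probe sets in place of the brightest, Svep1 gave 0.23. For Falcor the closest were Scube1 (0.992), Afap1l1 (0.992), Gdf10 (0.987), Ripply3 (0.985) and Ube2e3 (0.982), of which Gdf10, a TGF-beta family ligand, passed (1.49-fold higher, adjusted p 0.0465, lost without any 1 array, up to 0.155). The correlations are over 6 arrays that fall into 2 groups, and each gene was picked from 16537, of which 1.97% had an r above 0.9 with Foxa2 and 1.52% with Falcor. In wild type the highest Falcor signal was on replicate 3, which had the lowest Foxa2 signal. That Foxa2 signal was 7.84, against 7.85 on replicate 1, and wild-type Falcor was not shown to be above background. Among the arrays labelled Falcor-null, replicate 1 was highest in both.

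**Figure D4:**
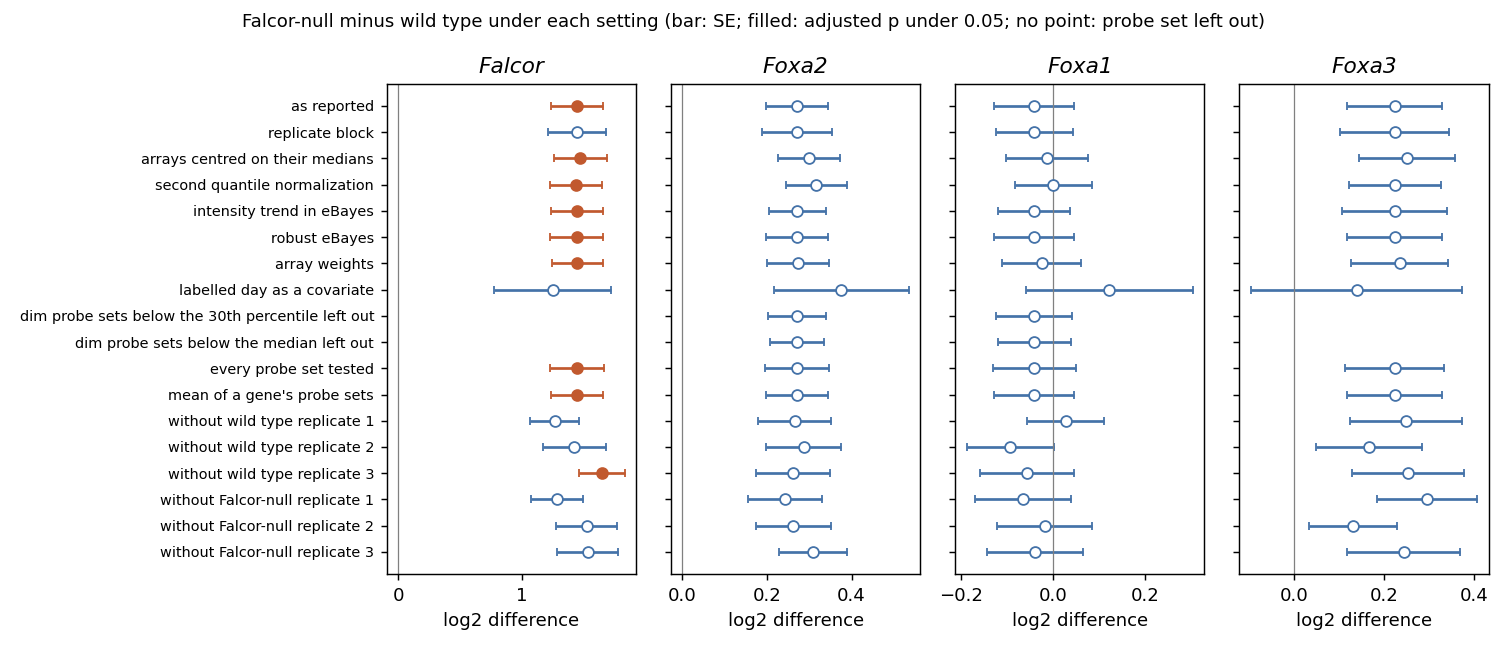
Log2 difference (Falcor-null minus wild type, horizontal axis, scaled separately per gene, bars ± SE) of the 4 member genes under each alternative (rows). Filled points have an adjusted p under 0.05: Falcor passed in 9 of 16 fits and stayed above 1.2 in all, Foxa2 stayed between 0.24 and 0.38 without passing, and Foxa1 lay on both sides of 0.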

How the data were processed

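The authors deposited 1 log2 signal per probe set and array, and per the submitters' processing notes oligo, RMA and limma were used, with no version given. RMA aligns the arrays by quantile normalization, which would hide a shift shared by most genes. No detection calls were at hand, so how far a dim probe set stands above background is unknown. Arrays were grouped by sample title.

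Of 24173 probe sets, 17476 had exactly 1 gene symbol in the platform annotation and were used. The brightest probe set stood for a gene, which left 16537 genes. Falcor-null was compared with wild type in limma 3.58.1 under R 4.3.3 (lmFit, then eBayes), two-sided and without a covariate, and p-values were adjusted over all genes by the Benjamini-Hochberg method. An adjusted p under 0.05 counted as passing. Intervals are 95% intervals of the moderated fit and are not adjusted for the number of genes. The fit was tested on simulated data. Promoter windows and the order of genes came from RefSeq, assembly GRCm38.p6.

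The member genes, the gene lists and the alternatives were chosen with earlier results of these data known. The genes named are the members, up to 3 of each list with the smallest p, the 5 most like Foxa2 and the 5 most like Falcor (official gene names only), and Nkx2-1, Scgb1a1 and Epcam. Shh, Spdef, Hnf4a and Sftpc were picked after seeing their values. No replicate pairing was used, since same-numbered arrays deviated from their group means with correlations of 0.022, -0.0025 and -0.081. Plots were made in Python 3.11.15 with matplotlib 3.10.9.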

Additional observations from a re-analysis of the deposited data

How the results depend on the processing

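Foxa2 and Foxa3 kept their direction and missed the threshold under all 17 and 15 alternatives that could be run (differences 0.24 to 0.38 and 0.13 to 0.30). Falcor and Foxa3 had no value with dim probe sets left out. With the replicate numbers as a block, a pairing the arrays did not show, Falcor lost its call (1.44, limma adjusted p 0.119), 32 genes passed in place of 92, and 5 list genes in place of 8. With the labelled day as a covariate Falcor gave 1.25, Foxa1 0.12, and 0 genes passed, in the lists or over all genes (1398 at an unadjusted limma p under 0.05). Foxa1 gave 0.00010 after a second quantile normalization. Testing every probe set gave 171 calls, over more features. Leaving out 1 array gave 1.26 to 1.64 for Falcor, -0.094 to 0.027 for Foxa1, 18 to 89 genes and 3 to 7 list genes. No neighbour of Foxa2 passed in any fit. Foxa2 beside the epithelial markers was 0.26 to 0.35 higher over these fits and, with marker means chosen after seeing the data, -0.042 (endothelial) and 0.051 (mesenchymal). Among the other named genes, Epcam gave -0.000016 with array weights, Epcam (-0.023), Pgc (-0.014), Esrp1 (0.15) and Cldn18 (0.16) turned with the day covariate, and with an array left out Epcam ran from -0.012 to 0.024 and Scgb1a1 from -0.0018 to 0.040. Of 38 named genes outside the 4 members that had no call, 15 moved by over 1.5 times with an array left out and 22 with the labelled day as a covariate, days that may not be true times. The cause of these changes was not tested. The number of arrays, 3 per group, limits the precision.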
